A study of Mus musculus with 15 samples.

Results

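The genes described here are 35 named genes of mitosis and cytokinesis, the steps in which a cell separates its chromosomes and then its body. A gene was represented by the probe set annotated to its symbol alone and, where there were several, by the one that was brightest on average over the 15 arrays. By this rule 34 of the 35 genes were measured, out of 19933 genes in all. The remaining gene, Ccnb1, which encodes cyclin B1, was not analysed here.

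The cells were G1E, a mouse proerythroblast line that lacks the transcription factor GATA1. Each of 5 lines carried GATA1-ER, a fusion of GATA1 to an oestrogen receptor part that estradiol switches on, either as wild type or with the substitution R216Q, R216W, D218G or D218Y. All 5 lines, wild type included, had received 100 nM estradiol for 24 hours, and each was measured on 3 arrays labelled as biological replicates. R216 and D218 are residues of the amino-terminal zinc finger of GATA1, and substitutions there cause inherited anaemia and low platelet counts in people. The design compares wild type GATA1 with each mutant, and the mutants with each other. Each construct was represented by 1 line, and the labels do not say whether a line was a clone or a pool of cells, so the mutation and the line cannot be told apart. All values are on the log2 scale as deposited, where a difference of 1 is a doubling, and levels are compared between lines for the same probe set only.

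As background, most genes of mitosis are switched on together late in the cell cycle. They are held down in resting cells by the DREAM complex, and are activated by the factors B-Myb, NF-Y and FOXM1. Cyclin B with CDK1 starts mitosis, the spindle and kinetochores align the chromosomes, the spindle checkpoint delays the anaphase-promoting complex until they are aligned, and a midzone and contractile ring then divide the cell. Maturing erythroblasts go through a small number of rapid divisions, which end as the cells mature, and GATA1 takes part in that withdrawal from the cycle.

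As a check of the lines, Gata1 itself lay at 12.35, 12.36 and 12.36 in wild type, at 12.16, 12.15 and 12.14 in R216Q, at 12.24, 12.25 and 12.26 in R216W, at 12.35, 12.33 and 12.38 in D218G and at 12.07, 12.05 and 12.08 in D218Y. The lines thus carried Gata1 RNA at levels no more than 0.29 apart, the largest difference being D218Y below wild type (-0.29 ± 0.03, SE, adjusted p = 1.12e-06, limma with Benjamini-Hochberg adjustment). Gata1 was also called lower by limma in R216Q (-0.21, adjusted p = 1.08e-04) and R216W (-0.11, adjusted p = 0.022), and not in D218G (-0.004). The substitution and the level of Gata1 RNA therefore cannot be told apart, and the part of that level in the results was not tested. The array median ran from 6.24 to 6.41, and within D218G replicate 3 was the odd array (6.25 against 6.37 and 6.40). Of 7 measured erythroid markers, all 7 had a line mean above 8 in at least 1 line, and their mean was 11.5 in wild type, 11.1 in R216Q, 11.3 in R216W, 11.1 in D218G and 9.73 in D218Y. Of 35 measured markers of mast cells, megakaryocytes, granulocytes and monocytes, lymphoid cells and stroma, only the platelet gene Gp9 reached a line mean above 8. The mean of the 7 mast cell markers was 4.75 in wild type and 5.13 in D218Y. Ms4a2 (4.10 in wild type and 6.56 in D218Y) and Cpa3 (5.26 and 5.91) were the higher ones there, Fcer1a was at 4.06 in both lines, and Tpsb2, Mcpt4, Mcpt8 and Cma1 were no higher in D218Y. The part of the erythroid and mast cell lists in the results was not tested.

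The average level of the mitosis genes was lower than in wild type in every mutant line, most of all in D218Y, although single genes differed. The mean over the 34 genes was 10.94 ± 0.02 (SD, n = 3 arrays) in wild type, 10.73 ± 0.02 in R216Q, 10.79 ± 0.01 in R216W, 10.80 ± 0.05 in D218G and 10.49 ± 0.02 in D218Y. Wild type was the highest of the 5 lines for 29 genes, and D218Y was the lowest for 29. In bulk RNA, a smaller share of cells in division and less of each RNA per dividing cell cannot be told apart.

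Genes were called when their adjusted p was under 0.05 in limma, fitted over all 19933 genes. The 34 genes were bright, from the 78.8th (Ttk) to the 99.65th (Ccna2) percentile of the mean level of all genes. They also varied less between arrays of a line, with a median SD in wild type of 0.035 against 0.063 for all genes. The shares of all genes given beside the counts include dimmer and more variable genes, and were not matched for level. The mitosis genes were also chosen with earlier results of these data known. In D218Y, 32 of the 34 genes fell, where 24.2% of all genes tested fell, and the median difference from wild type was -0.43 (all genes: -0.07). In R216Q, 25 fell, against 9.65% of all genes, with a median of -0.22 (all genes: -0.01). In R216W, 19 fell, against 7.23% of all genes, with a median of -0.15 (all genes: -0.02). In D218G, 15 fell, against 7.77% of all genes, with a median of -0.11 (all genes: -0.02). On a linear scale the median gene fell by 25.6% in D218Y, fell by 14.4% in R216Q, fell by 10.1% in R216W and fell by 7.53% in D218G. In the main fit limma called 0 genes higher in any of the 4 lines. At an unadjusted p under 0.05 the number higher was 0 in R216Q, 1 in R216W, 1 in D218G and 0 in D218Y. Under at least 1 of the alternatives tried, Racgap1 in R216W and Cdc20 in D218G did pass as higher (lowest adjusted p = 0.00911 and 0.00402 in limma). Of all genes tested, 11.8%, 9.36%, 10.3% and 20.3% were called higher in R216Q, R216W, D218G and D218Y. The 3 arrays of a mutant line lay below all 3 wild type arrays for 34 genes in D218Y (33.3% of all genes), 30 in R216Q (15.1%), 25 in R216W (14.9%) and 22 in D218G (12.2%). The 4 comparisons share the wild type arrays, so they are not independent of each other.

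Many calls in the less affected lines depended on the scaling of the arrays, and the counts moved both ways. With cyclic loess normalization 20 genes were called in D218G, and with quantile normalization 33 were called in D218Y. When each array's median was subtracted, which raised the spread between arrays of a line (median SD of the 34 genes 0.04 as deposited and 0.08 after), 27 genes fell in D218Y, 15 in R216Q, 6 in R216W and 4 in D218G. The median differences under that scaling were -0.33, -0.22, -0.13 and -0.09. The share of all genes called was not computed for this or the other scalings, so these counts cannot be read against it. The calls that held under every alternative tried were those of Cenpf, Racgap1, Nusap1 and Kif23 in D218G and of Cenpf, Cenpe, Incenp, Anln, Espl1 and Cdc20 in R216W, while in D218Y those of Aurkb, Cdk1, Cenpa, Kif23 and Mad2l1 did not hold. Without replicate 3 of D218G, 18 genes fell in that line.

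**Figure D1:**
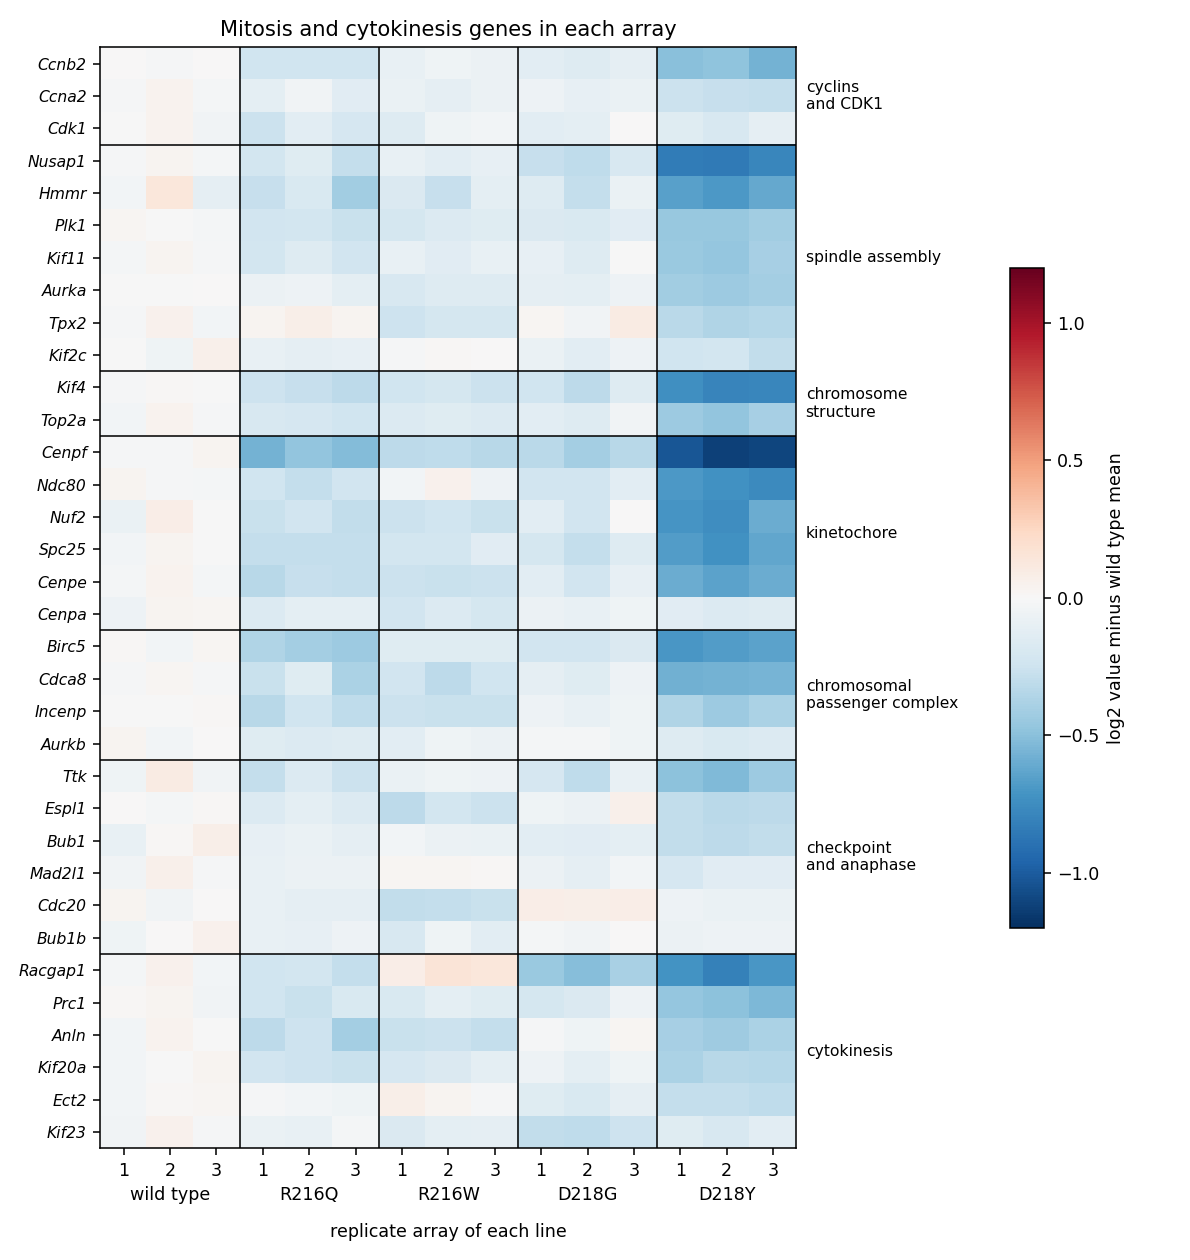
Difference from the wild type mean (log2, colour) for each of the 34 genes, in rows by role, on each of the 15 arrays in columns by line. The D218Y columns are the darkest, reaching -1.08 for the mean of Cenpf, and no column of a mutant line shows a general rise.

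Of the 34 genes, 7 fell in all 4 mutant lines: Plk1, Cenpe, Cenpf, Kif4, Birc5, Spc25 and Prc1. The share of all genes with this pattern of calls, or with those that follow, was not computed. A further 8 fell in R216Q, R216W and D218Y but were not called in D218G: Cenpa, Kif20a, Top2a, Incenp, Cdca8, Nuf2, Anln and Espl1. The 5 genes Ccnb2, Ttk, Ndc80, Racgap1 and Nusap1 fell in R216Q, D218G and D218Y but were not called in R216W. Cdk1, Aurkb, Kif11 and Hmmr fell in R216Q and D218Y, and Aurka and Tpx2 in R216W and D218Y. Bub1 and Ect2 fell in both D218 lines, and Kif23 in R216W and both D218 lines. Ccna2, Mad2l1 and Kif2c passed in D218Y alone, Cdc20 passed in R216Q and R216W, and Bub1b passed in none. A call in one line without a call in another does not show that the lines differ, which the comparisons between mutants address further on. Over all 5 lines, the limma F test called 33 of the 34 genes, against 41.9% of all genes, with Bub1b (adjusted p = 0.117) the exception.

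**Figure D2:**
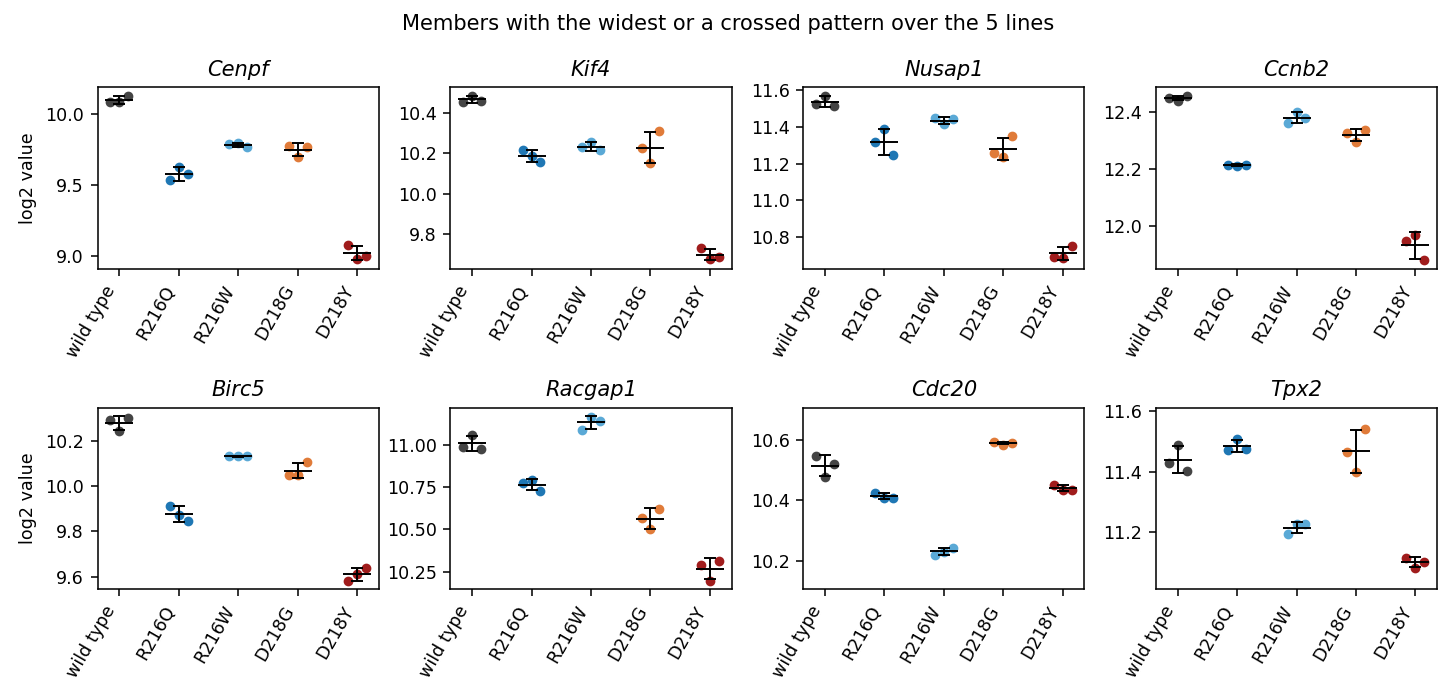
Level (log2) on each of the 3 arrays of each line (points; bars are the mean ± SD) for 8 of the genes, each panel on its own axis. Cenpf, Kif4, Nusap1, Ccnb2 and Birc5 are lowest in D218Y and highest in wild type, R216W lies above wild type for Racgap1, and Cdc20 is lowest in R216W.

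The promoters of these genes are shown because the genes moved together and their late cell cycle activation is known to run through short elements near the start. The motifs searched, on both strands of the 250 bases before the start, were CCAAT, the box bound by NF-Y, the cell cycle homology region TTTGAA or TTCGAA, bound by the DREAM complex, and AGATAA or TGATAA, which GATA factors bind. RefSeq promoters (GRCm38.p6) were at hand for 29 of the 34 genes, with 31 starts. CCAAT was found in 24 of the 31 promoters (77.4%), against 33.8% of 32851 promoters of all genes, and 14 of the 29 genes (48.3%) had it at least 2 times, against 11.5% of all genes. The cell cycle homology region was found in 11 promoters (35.5%, all: 17.1%), and the GATA motif in 4 (12.9%, all: 16.6%). These are matches of letters and not shown to be sites, and no array value bears on binding.

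The 100 bases before the start of 8 genes are printed 5′ to 3′ on the gene's own strand, with CCAAT (or ATTGG on the other strand) and the cell cycle homology region (or TTCAAA or TTCGAA on the other strand) in capitals. Cdc20, Cdk1, Espl1, Kif11, Prc1 and Top2a were printed because they held both motifs in this stretch. Cenpf and Racgap1, among the largest falls, were added for the highest F statistic of their roles. They held CCAAT but not the other motif there. The share of all promoters with both motifs in this stretch was not computed.
Cdc20, chr4:118437344-118437443 (-): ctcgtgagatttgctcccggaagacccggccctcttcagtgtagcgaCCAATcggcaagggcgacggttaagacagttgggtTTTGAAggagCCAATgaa
Cdk1, chr10:69352913-69353012 (-): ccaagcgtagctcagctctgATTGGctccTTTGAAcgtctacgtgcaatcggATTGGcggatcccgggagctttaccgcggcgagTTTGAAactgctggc
Cenpf, chr1:189688087-189688186 (-): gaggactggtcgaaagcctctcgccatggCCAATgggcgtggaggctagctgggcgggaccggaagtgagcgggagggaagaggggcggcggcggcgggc
Espl1, chr15:102296193-102296292 (+): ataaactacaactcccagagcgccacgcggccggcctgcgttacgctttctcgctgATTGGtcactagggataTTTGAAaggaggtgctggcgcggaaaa
Kif11, chr19:37376282-37376381 (+): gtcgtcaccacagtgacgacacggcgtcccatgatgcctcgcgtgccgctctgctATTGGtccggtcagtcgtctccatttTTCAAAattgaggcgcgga
Prc1, chr7:80294376-80294475 (+): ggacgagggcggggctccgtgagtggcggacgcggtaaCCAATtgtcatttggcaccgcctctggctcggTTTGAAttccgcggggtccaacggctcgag
Racgap1, chr15:99651657-99651756 (-): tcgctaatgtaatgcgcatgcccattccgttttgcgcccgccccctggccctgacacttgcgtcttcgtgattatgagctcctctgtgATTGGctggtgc
Top2a, chr11:99024190-99024289 (-): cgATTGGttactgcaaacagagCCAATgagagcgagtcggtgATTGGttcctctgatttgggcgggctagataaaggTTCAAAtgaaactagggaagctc
In these stretches the cell cycle homology region began 18 bases before the start in Cdc20, 71 and 15 in Cdk1, 27 in Espl1, 19 in Kif11, 30 in Prc1 and 23 in Top2a.

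Among the kinases and cyclins that start mitosis, Ccnb2, cyclin B2, changed most. Its values were 12.45, 12.44 and 12.46 in wild type, 12.22, 12.21 and 12.22 in R216Q, 12.36, 12.40 and 12.38 in R216W, 12.33, 12.30 and 12.34 in D218G and 11.95, 11.97 and 11.88 in D218Y. Every D218Y array lay below every other array, and all mutant arrays lay below all wild type arrays. Ccnb2 fell by 0.52 ± 0.03 in D218Y (SE, n = 3 per line; adjusted p = 5.68e-09, limma), by 0.24 in R216Q and by 0.13 in D218G, and the R216W difference of -0.07 did not pass (adjusted p = 0.209). Cdk1, the kinase that cyclins A and B activate, had the lowest F statistic of this role over the 5 lines. It lay at 11.44, 11.49 and 11.39 in wild type, 11.18, 11.31 and 11.23 in R216Q, 11.28, 11.39 and 11.41 in R216W, 11.31, 11.32 and 11.44 in D218G and 11.29, 11.25 and 11.33 in D218Y. The wild type arrays overlapped those of R216W and D218G, and Cdk1 fell in R216Q (-0.20 ± 0.05) and D218Y (-0.15 ± 0.05). Ccna2, cyclin A2, fell in D218Y alone (-0.27 ± 0.04) and differed from wild type by -0.10 to -0.08 in the other lines.

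All 7 spindle assembly genes fell in D218Y, 4 fell in R216Q, 3 in R216W and 2 in D218G. Nusap1, which bundles spindle microtubules beside the chromosomes, read 11.53, 11.57 and 11.51 in wild type, 11.32, 11.39 and 11.25 in R216Q, 11.45, 11.41 and 11.44 in R216W, 11.26, 11.23 and 11.35 in D218G and 10.69, 10.69 and 10.75 in D218Y. The D218Y arrays stood clear of all others, and Nusap1 fell there by 0.83 ± 0.04 (on the linear scale it fell by 43.6%). It also fell in D218G (-0.26) and R216Q (-0.22), and was at -0.10 in R216W (adjusted p = 0.146). Kif2c, a kinesin that takes microtubules apart at kinetochores, read 10.29, 10.24 and 10.36 in wild type, 10.21, 10.19 and 10.20 in R216Q, 10.28, 10.31 and 10.30 in R216W, 10.22, 10.17 and 10.23 in D218G and 10.06, 10.07 and 10.00 in D218Y. The wild type and R216W arrays overlapped, and Kif2c fell in D218Y alone (-0.25 ± 0.04). Plk1, a kinase needed at many steps of mitosis, fell in all 4 lines (from -0.16 in D218G to -0.44 in D218Y). Hmmr, a spindle-associated protein, fell in D218Y (-0.65 ± 0.07) and R216Q (-0.29), and Kif11, the motor that pushes spindle poles apart, fell in the same lines (-0.43 and -0.20).

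Tpx2, which activates the Aurora A kinase on the spindle, departed from this order. It lay at 11.43, 11.49 and 11.40 in wild type, 11.47, 11.51 and 11.48 in R216Q, 11.19, 11.23 and 11.23 in R216W, 11.46, 11.40 and 11.54 in D218G and 11.11, 11.08 and 11.10 in D218Y. R216W and D218Y were low, while R216Q and D218G overlapped wild type. Tpx2 fell by 0.34 ± 0.04 in D218Y and by 0.23 ± 0.04 in R216W, and stood at 0.05 in R216Q and 0.03 in D218G, which did not pass. Aurka, the gene of Aurora A itself, was called in the same lines (-0.42 in D218Y and -0.17 in R216W), with -0.08 in R216Q and -0.09 in D218G. The Tpx2 call in R216W was lost when array medians were subtracted (adjusted p = 0.0944).

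Of the chromosome structure genes, Kif4, a kinesin that travels on chromosome arms and on the midzone, read 10.46, 10.49 and 10.46 in wild type, 10.22, 10.19 and 10.16 in R216Q, 10.23, 10.26 and 10.21 in R216W, 10.22, 10.15 and 10.31 in D218G and 9.73, 9.68 and 9.69 in D218Y. The 3 less affected mutants overlapped each other (-0.28, -0.23 and -0.24 in R216Q, R216W and D218G), and D218Y was at -0.77 ± 0.04 from wild type (on the linear scale Kif4 fell by 41.3%). Top2a, topoisomerase II alpha, which untangles sister DNA, read 11.74, 11.82 and 11.76 in wild type, 11.58, 11.57 and 11.54 in R216Q, 11.61, 11.63 and 11.61 in R216W, 11.65, 11.62 and 11.73 in D218G and 11.34, 11.30 and 11.38 in D218Y. It fell in D218Y (-0.44 ± 0.04), R216Q (-0.21) and R216W (-0.16), with -0.11 in D218G (adjusted p = 0.0646). A dimmer Top2a probe set, at 6.41 in wild type, read 6.13 in D218Y, 6.22 in R216Q, 6.37 in R216W and 6.24 in D218G. Probe sets annotated to Top2a and Hibadh together were left out by the rule. They read 8.58 and 8.75 in wild type, 8.55 and 8.68 in D218Y, and 8.46 and 8.58 in R216Q. In R216W they read 8.64 and 8.74, and in D218G 8.49 and 8.63. With the mean of both probe sets annotated to Top2a alone, Top2a passed in D218Y (adjusted p = 0.0155) and no longer in R216Q (adjusted p = 0.267) or R216W.

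The kinetochore genes held the largest difference. Cenpf, a large protein of the outer kinetochore that builds up in G2, lay at 10.08, 10.08 and 10.13 in wild type, 9.53, 9.63 and 9.57 in R216Q, 9.79, 9.80 and 9.76 in R216W, 9.78, 9.70 and 9.77 in D218G and 9.08, 8.98 and 9.0 in D218Y. The lines fell in clear steps, with R216W and D218G overlapping. Cenpf fell by 1.08 ± 0.04 in D218Y (adjusted p = 1.37e-11; on the linear scale it fell by 52.7%), by 0.52 in R216Q, by 0.35 in D218G and by 0.32 in R216W. Cenpa, the histone H3 variant that marks the centromere, had the lowest F statistic of the role. It read 11.36, 11.46 and 11.45 in wild type, 11.26, 11.30 and 11.31 in R216Q, 11.19, 11.26 and 11.21 in R216W, 11.35, 11.34 and 11.37 in D218G and 11.28, 11.26 and 11.26 in D218Y. R216W was its lowest line (-0.20 ± 0.04), ahead of D218Y (-0.16) and R216Q (-0.13), and D218Y against R216W stood at 0.05 (95% interval -0.03 to 0.12, adjusted p = 0.33).

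Ndc80, Nuf2 and Spc25 encode 3 subunits of the NDC80 complex, the microtubule clamp of the kinetochore. Spc25 fell in all 4 lines, by 0.68 in D218Y, 0.29 in R216Q, 0.22 in D218G and 0.19 in R216W. Ndc80 fell in D218Y (-0.73 ± 0.04), R216Q (-0.25) and D218G (-0.19) and was at -0.01 in R216W (adjusted p = 0.919). Nuf2 fell in D218Y (-0.68 ± 0.06), R216Q (-0.27) and R216W (-0.26) and was at -0.12 in D218G (adjusted p = 0.23). Cenpe, a kinetochore motor, fell in all 4 lines, from -0.15 in D218G to -0.61 in D218Y.

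The chromosomal passenger complex corrects wrong attachments of chromosomes to the spindle. Birc5, its survivin subunit, lay at 10.29, 10.24 and 10.30 in wild type, 9.91, 9.87 and 9.84 in R216Q, 10.13, 10.13 and 10.13 in R216W, 10.05, 10.05 and 10.11 in D218G and 9.58, 9.61 and 9.64 in D218Y. No array of a mutant line reached the wild type range, and R216Q lay between D218Y and the other mutants. Birc5 fell by 0.67 ± 0.03 in D218Y (adjusted p = 5.44e-10), 0.40 in R216Q, 0.21 in D218G and 0.15 in R216W. Aurkb, the kinase of the complex, read 11.57, 11.51 and 11.55 in wild type, 11.40, 11.38 and 11.39 in R216Q, 11.42, 11.49 and 11.48 in R216W, 11.52, 11.52 and 11.49 in D218G and 11.39, 11.36 and 11.38 in D218Y. It fell in D218Y (-0.17 ± 0.03) and R216Q (-0.16), and both calls were lost when array medians were subtracted. The subunits Cdca8 (borealin) and Incenp fell in D218Y (-0.57 and -0.40), R216Q (-0.26 and -0.29) and R216W (-0.26 for each), and were at -0.11 and -0.06 in D218G without passing.

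Among the checkpoint and anaphase genes, Cdc20, the activator through which the checkpoint holds the anaphase-promoting complex, followed a course of its own. It lay at 10.54, 10.48 and 10.52 in wild type, 10.42, 10.41 and 10.41 in R216Q, 10.22, 10.23 and 10.24 in R216W, 10.59, 10.58 and 10.59 in D218G and 10.45, 10.43 and 10.43 in D218Y. R216W was the lowest line, and the D218G arrays lay above all wild type arrays. Cdc20 fell by 0.28 ± 0.03 in R216W (adjusted p = 1.07e-05) and by 0.10 in R216Q, while the differences in D218Y (-0.07, adjusted p = 0.0638) and D218G (0.07, adjusted p = 0.127) did not pass. Bub1b, the checkpoint kinase BUBR1, read 10.43, 10.48 and 10.53 in wild type, 10.39, 10.38 and 10.42 in R216Q, 10.29, 10.43 and 10.35 in R216W, 10.46, 10.44 and 10.49 in D218G and 10.41, 10.42 and 10.42 in D218Y. Its arrays were close in all lines, and the 95% interval of its D218Y difference ran from -0.15 to 0.02, which does not reach the median fall of the 34 genes (-0.43). Bub1, a kinase of the same checkpoint, fell in D218Y (-0.30) and D218G (-0.13), and Mad2l1, the checkpoint protein MAD2, in D218Y alone (-0.16). Ttk, the checkpoint kinase MPS1, fell in D218Y (-0.49 ± 0.06), R216Q (-0.24) and D218G (-0.20). Espl1, separase, which cuts the cohesin ring, fell in D218Y (-0.31), R216W (-0.26) and R216Q (-0.15), with -0.02 in D218G.

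In cytokinesis, Racgap1, the midzone protein that works with Ect2 and Kif23 to place the cleavage furrow, separated the lines most. It lay at 10.99, 11.06 and 10.98 in wild type, 10.77, 10.79 and 10.73 in R216Q, 11.09, 11.16 and 11.15 in R216W, 10.57, 10.50 and 10.62 in D218G and 10.29, 10.20 and 10.31 in D218Y. R216W lay above every wild type array and the 3 other mutants below them, each clear of the next. Racgap1 fell by 0.74 ± 0.04 in D218Y (on the linear scale it fell by 40.3%), by 0.45 in D218G and by 0.24 in R216Q, and the R216W difference was 0.12 ± 0.04 (adjusted p = 0.0791). Kif23, its kinesin partner in the centralspindlin complex, read 10.93, 11.02 and 10.95 in wild type, 10.89, 10.88 and 10.94 in R216Q, 10.79, 10.85 and 10.86 in R216W, 10.67, 10.66 and 10.72 in D218G and 10.82, 10.77 and 10.84 in D218Y. D218G was its lowest line (-0.28 ± 0.04, adjusted p = 8.01e-05), with D218Y at -0.16 and R216W at -0.14. Ect2, which activates the furrow GTPase RhoA, fell in both D218 lines (-0.29 in D218Y and -0.15 in D218G) and stood at -0.03 in R216Q and 0.03 in R216W. Anln, the ring scaffold anillin, fell in D218Y (-0.40), R216Q (-0.32) and R216W (-0.27) and stood at -0.01 in D218G. Prc1, which bundles midzone microtubules, fell in all 4 lines (-0.50 in D218Y, -0.23 in R216Q and -0.15 in both others), and Kif20a, a midzone motor, fell in D218Y (-0.35), R216Q (-0.25) and R216W (-0.16).

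The mutants were then compared with each other, substitution by substitution at the same residue and across residues, in 6 pairs. Between the lines substituted at D218, D218Y had lower levels than D218G for most of the genes. Of the 34 genes 29 were lower in D218Y than in D218G, against 15.6% of all genes, and 1, Kif23, was higher (0.13 ± 0.04, adjusted p = 0.017), against 17.4%. The median was -0.32. The largest differences were in Cenpf (-0.73), Nusap1 (-0.57), Nuf2 (-0.56) and Ndc80 (-0.53).

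At R216 the lines differed in fewer genes. In R216W against R216Q, 6 genes were higher (all genes: 8.25%) and 2 lower (all genes: 8.65%), with a median of 0.06. The 6 were Racgap1 (0.37 ± 0.04, adjusted p = 2.60e-05), Birc5 (0.26), Ndc80 (0.24), Cenpf (0.20), Ttk (0.17) and Ccnb2 (0.17), and the 2 were Tpx2 (-0.27 ± 0.04, adjusted p = 1.64e-04) and Cdc20 (-0.18). As shares of the 34 genes these are 17.6% and 5.88%, and 17 genes differed when the variance was fitted with a trend or arrays were weighted.

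Between residues, D218Y was lower than R216Q for 26 genes (all genes: 15.4%; median -0.24) and lower than R216W for 27 (all genes: 17.5%; median -0.27). Only Cdc20 was higher in D218Y than in R216W (0.21 ± 0.03, all genes: 18.8%), and limma called 0 genes higher in D218Y than in R216Q, also at an unadjusted p under 0.05. The comparison with R216Q fell to 14 genes when array medians were subtracted.

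D218G differed from the R216 lines in both directions, but the shares of the mitosis genes called lower were near those of all genes. Against R216Q, 9 genes were higher (all genes: 6.87%), among them Anln (0.31), Incenp (0.23), Birc5 (0.19), Cdc20 (0.18) and Cenpf (0.17), and 3, Kif23 (-0.22), Racgap1 (-0.20) and Ect2 (-0.12), were lower (all genes: 6.52%). Against R216W, 7 were higher (all genes: 11.3%), namely Cdc20 (0.36), Anln (0.25), Tpx2 (0.25), Espl1 (0.24), Incenp (0.20), Cdca8 (0.15) and Cenpa (0.14). The 5 lower (all genes: 10.7%) were Racgap1 (-0.57 ± 0.04, adjusted p = 1.72e-07), Ndc80 (-0.18), Ect2 (-0.18), Nusap1 (-0.15) and Kif23 (-0.15). Only 4 of the 12 calls against R216Q and 6 of the 12 against R216W held under every alternative. Cenpf (highest adjusted p = 0.093 in limma), Aurkb, Ccnb2, Cenpe and Kif20a were lost against R216Q, and Cdca8, Cenpa, Ndc80 and Nusap1 against R216W. The calls against R216Q of Racgap1, Ect2 and Kif23, all genes of cytokinesis, were lost too (highest adjusted p = 0.179, 0.531 and 0.0633 in limma), and so were those of Ect2 and Kif23 against R216W (0.0644 and 0.142). Anln, of the same role, was higher in D218G than in both R216 lines. These 2 comparisons kept 4 and 6 called genes when array medians were subtracted, and 7 were left in the first without replicate 1 of R216Q.

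**Figure D3:**
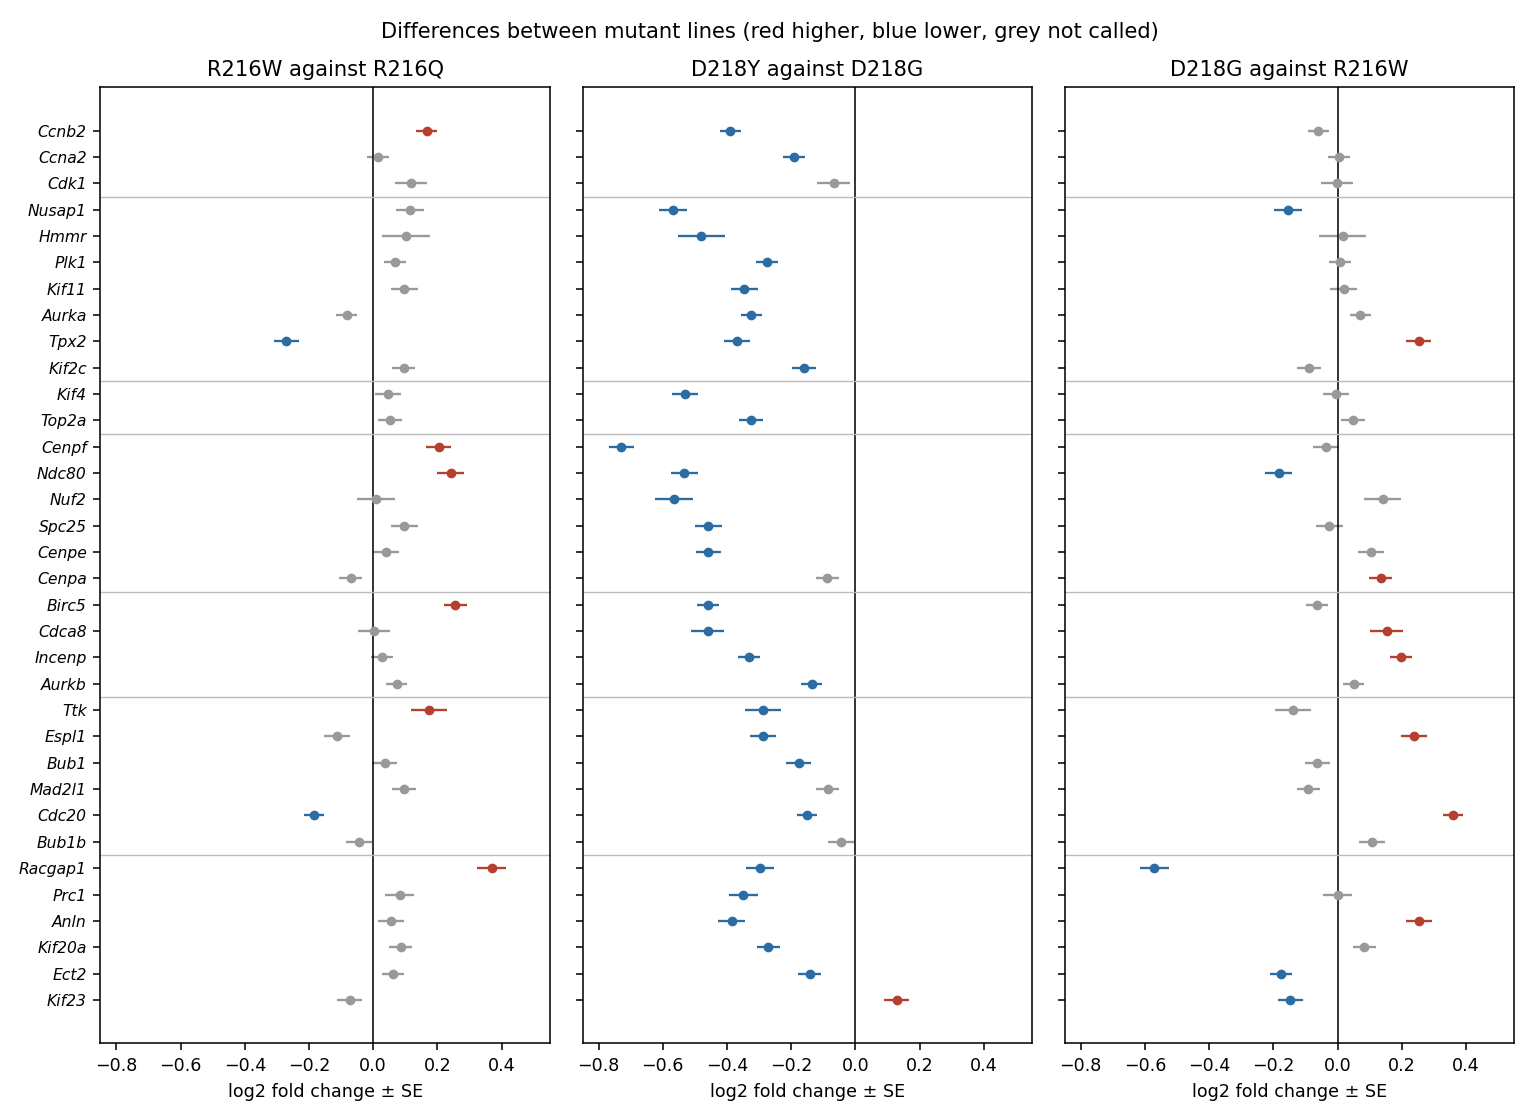
Difference between 2 mutant lines (log2, points; bars are ± SE from limma, n = 3 arrays per line; red called higher, blue lower, grey not called) for each of the 34 genes, in panels for R216W against R216Q, D218Y against D218G and D218G against R216W. In the D218Y panel 29 genes are called lower, Racgap1 and Tpx2 lie at opposite ends in R216W against R216Q, and Racgap1 is lowest in D218G against R216W.

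Across the 15 arrays the 34 genes moved largely together. The Pearson correlation of gene pairs had a median of 0.806 over 561 pairs, of which 548 were above 0, and a median of 0.322 after the mean of each line was subtracted. The correlation of a gene with the mean of the other 33 ran from 0.127 for Cdc20, 0.29 for Kif23, 0.306 for Bub1b and 0.574 for Cenpa up to 0.992 for Spc25, and the other 30 genes were at 0.6 or above. These values describe arrays that share lines and normalization.

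Other genes of the cell cycle were taken from lists grouped by function, which were chosen with earlier results of these data known. Their counts are to be read against all genes tested, of which 24.2% fell and 20.3% rose in D218Y, 9.65% and 11.8% in R216Q, 7.23% and 9.36% in R216W, and 7.77% and 10.3% in D218G. Of 28 other spindle and midbody genes, 24 fell in D218Y (3 rose), 20 in R216Q (3 rose), 15 in R216W (3 rose) and 14 in D218G (2 rose), with medians of -0.52, -0.25, -0.15 and -0.14. The falls were 85.7%, 71.4%, 53.6% and 50% of the list, and the rises, at 7.14% to 10.7%, were near or below the share of all genes. Cit, the citron kinase of the midbody, fell by 1.21, 0.59, 0.41 and 0.51 in D218Y, R216Q, R216W and D218G, and Kif14, its kinesin partner, fell by 0.96, 0.43, 0.31 and 0.22. The midbody gene Cep55, which recruits the machinery of the final cut, moved the other way. It lay at 6.67, 6.64 and 6.51 in wild type, 8.15, 8.10 and 8.02 in R216Q, 8.56, 8.68 and 8.64 in R216W, 7.04, 6.91 and 7.25 in D218G and 8.60, 8.52 and 8.56 in D218Y, and rose by 1.48, 2.02, 0.46 and 1.95. Septin9, a filament protein of the furrow, rose by 2.07 ± 0.05 in D218Y, 0.77 in R216W and 0.21 in R216Q, with 0.05 in D218G.

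Of 34 other kinetochore and checkpoint genes, 27 fell in D218Y (1 rose), 25 in R216Q, 10 in R216W (1 rose) and 5 in D218G. These falls were 79.4% of the list in D218Y, 73.5% in R216Q and 29.4% in R216W, where all genes had 24.2%, 9.65% and 7.23%, and the 5 of 34 in D218G compare with 7.77%. Cenpk, a subunit of the inner kinetochore, fell by 1.27 ± 0.05 in D218Y, 0.55 in R216Q, 0.31 in R216W and 0.27 in D218G. Cenpl and Cenph, of the same inner layer, fell in D218Y (-0.95 and -0.75) and R216Q (-0.34 and -0.31), and Kntc1, which brings dynein to kinetochores, fell in D218Y (-0.71), R216Q (-0.23) and D218G (-0.16). Of 19 condensin and cohesin genes 15, 11, 2 and 4 fell in D218Y, R216Q, R216W and D218G (78.9%, 57.9%, 10.5% and 21.1%), so that the share in R216W was close to that of all genes. The condensin subunit Ncapd3 fell in all 4 lines (-0.65, -0.44, -0.28 and -0.18), Ncapd2 in D218Y (-0.70), R216Q (-0.28) and R216W (-0.16), and Ncapg2 and the cohesin ring gene Rad21 in D218Y (-0.43 and -0.43) and R216Q (-0.29 and -0.20).

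Of 20 genes of the anaphase-promoting complex and its regulators, 11 fell and 4 rose in D218Y, 7 and 2 in R216Q, and 4 and 2 in each of R216W and D218G. The falls were 55% of the list in D218Y (all genes: 24.2%), 35% in R216Q (9.65%) and 20% in R216W and D218G (7.23% and 7.77%). The rises, 20% in D218Y and 10% in each other line, were close to the shares of all genes (20.3%, 11.8%, 9.36% and 10.3%). Pttg1, securin, the inhibitor of separase, fell by 1.19 ± 0.04, 0.40, 0.16 and 0.32 in D218Y, R216Q, R216W and D218G. Fbxo5, the inhibitor EMI1, fell in D218Y (-0.78), R216W (-0.34) and R216Q (-0.23). Anapc13, a small subunit, fell in D218Y (-0.57), R216Q (-0.26) and D218G (-0.23). Fzr1, the activator CDH1, rose in R216W (0.31) and fell in D218Y (-0.56), D218G (-0.35) and R216Q (-0.19).

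Of 19 regulators of mitotic entry, 12 fell and 1 rose in D218Y, 10 and 1 in R216Q, 5 and 2 in R216W, and 4 and 1 in D218G. The falls were 63.2%, 52.6%, 26.3% and 21.1% of the list (all genes: 24.2%, 9.65%, 7.23% and 7.77%), and the rises 5.26%, 5.26%, 10.5% and 5.26% (all genes: 20.3%, 11.8%, 9.36% and 10.3%). Foxm1, an activator of the late genes, fell in D218Y (-0.49 ± 0.04), R216Q (-0.33) and R216W (-0.13) and was at -0.07 in D218G, not passing. Mybl2, which encodes B-Myb, fell most in R216Q (-0.37), with -0.20 in D218Y, -0.18 in R216W and -0.10 in D218G, the last not passing. Lin52, a subunit shared by DREAM and its activating form, fell in D218Y (-0.54), R216W (-0.19) and R216Q (-0.19). The phosphatase gene Cdc25c fell in all 4 lines (-1.14, -0.45, -0.25 and -0.33 in D218Y, R216Q, R216W and D218G). Its relative Cdc25b split by residue. It lay at 10.12, 10.12 and 10.12 in wild type, rose in R216Q (0.34) and R216W (0.27), and fell in D218G (-1.11) and D218Y (-1.88 ± 0.04, adjusted p = 4.44e-14).

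DNA replication genes, which peak earlier in the cycle, did not move as a body in D218G. Of 39 measured, 9 rose and 3 fell in D218G (median 0.04), 3 rose and 10 fell in R216W (-0.09), 2 rose and 16 fell in R216Q (-0.09), and 6 rose and 20 fell in D218Y (-0.12). The share that fell in D218G, 7.69%, was close to that of all genes (7.77%), and 23.1% rose there (all genes: 10.3%). The falls were 25.6% in R216W (all genes: 7.23%), 41% in R216Q (9.65%) and 51.3% in D218Y (24.2%), and the rises in these lines, at 7.69%, 5.13% and 15.4%, were below those of all genes (9.36%, 11.8% and 20.3%). Pold2, a subunit of DNA polymerase delta, rose in all 4 lines (0.91 in D218Y, 0.42 in R216Q, 0.40 in D218G and 0.29 in R216W). Cdc6, a licensing factor, fell in all 4, from -0.69 in D218Y to -0.13 in D218G. Ccne1, cyclin E1, fell in R216W (-0.63), D218Y (-0.55) and R216Q (-0.25) and rose in D218G (0.12, adjusted p = 0.0461). Gins2, of the replicative helicase, fell in D218Y (-0.62), R216Q (-0.26) and R216W (-0.23) and was at 0.12 in D218G, not passing.

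**Figure D4:**
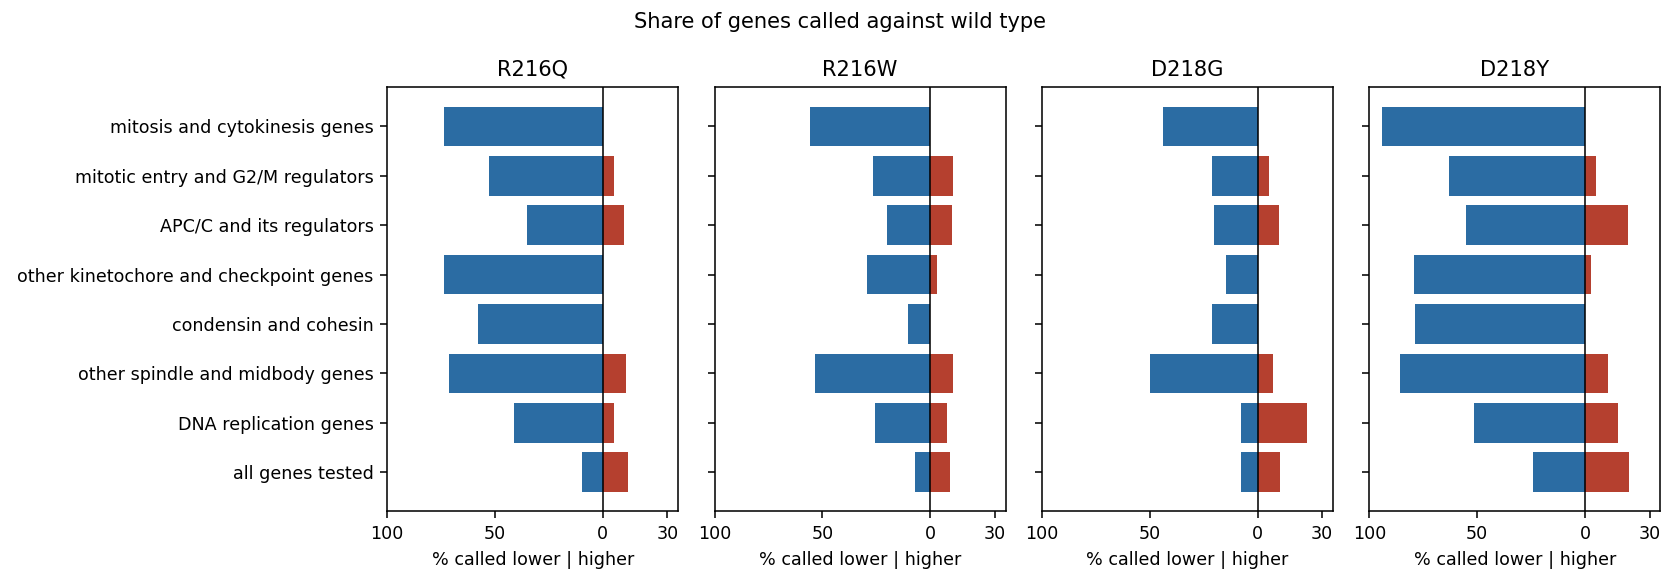
Share of each list's measured genes called higher (to the right) and lower (to the left) against wild type in each mutant line (percent), beside the same share of all 19933 genes. Of the mitosis and cytokinesis genes 94.1% were lower in D218Y and 44.1% in D218G, and DNA replication genes in D218G are the list with more rises than falls.

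**Figure D5:**
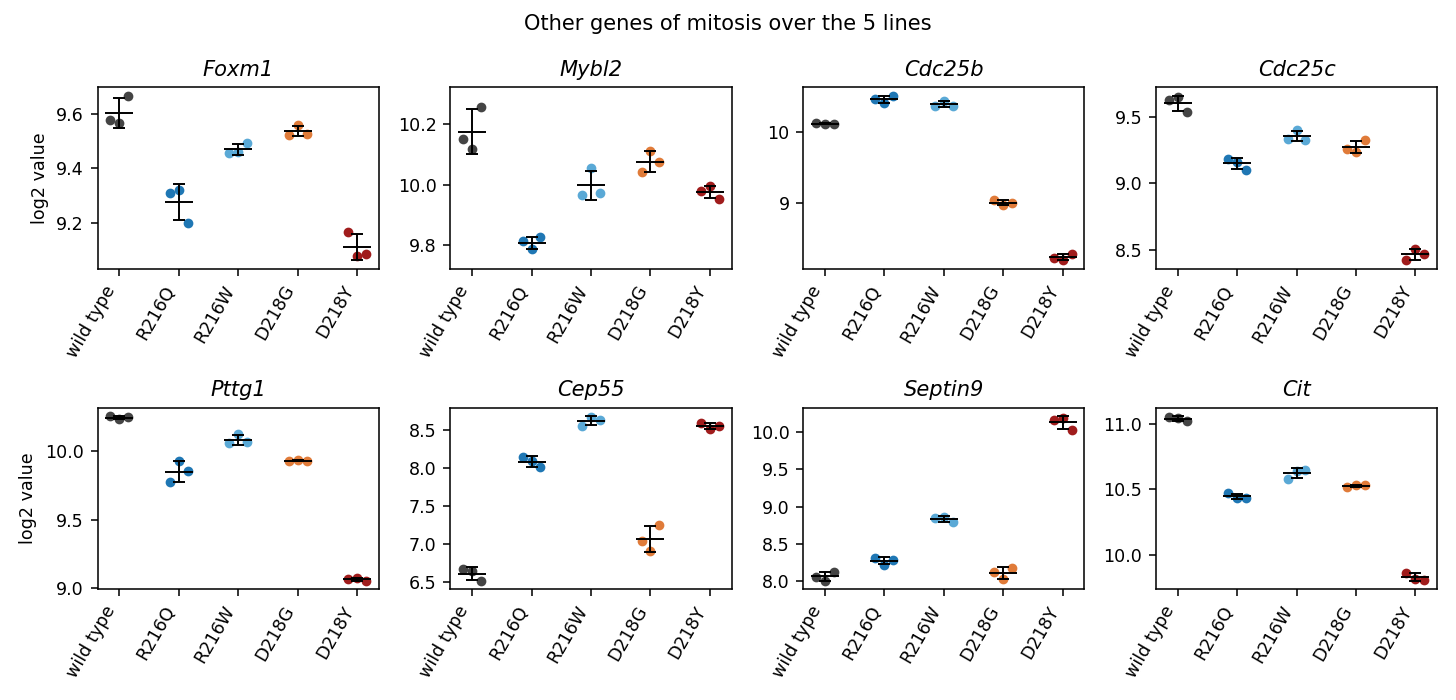
Level (log2) on each of the 3 arrays of each line (points; bars are the mean ± SD) for 8 genes outside the 34, each panel on its own axis. Cep55 and Septin9 are high in D218Y, where Cit, Pttg1 and Cdc25c are low, and Cdc25b is above wild type in the R216 lines and below it in the D218 lines.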

How the data were processed

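RNA of 15 samples of G1E cells was measured on Affymetrix arrays. The authors deposited log2 values made by RMA in Partek 6.6, per the submitters' processing notes; the labels give no further settings. RMA had already normalized the arrays to each other, so a change shared by most genes is partly removed. Of 28350 probe sets, 21780 were annotated to 1 symbol, 1618 to several and 4952 to none, and 19933 genes remained. From these values limma 3.58.1 (R 4.3.3) fitted 5 line means and 10 differences by lmFit and eBayes, with Benjamini-Hochberg adjustment within each difference. In simulated D218Y data on 19933 genes, 2%, 48%, 94% and 100% of changes of 0.1, 0.25, 0.5 and 1 were called. The mitosis genes varied less between arrays of a line than all genes, and changes as small as -0.15 were called in D218Y. The simulated shares therefore do not give the sensitivity for the mitosis genes. Array number, 3 per line, limits the precision. Replicate numbers did not pair the samples. Members and lists were chosen with earlier results of these data known. All members were named. Arrays are listed one by one for the highest and lowest F statistic of each role, and for Tpx2 and a few other genes chosen after their values were seen. In the other lists, the genes with the largest called changes were named, up to 4 a list, plus Foxm1 and Mybl2.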

Additional observations from a re-analysis of the deposited data

Results flagged for a closer look

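For 5 of the 34 genes, 2 mutant lines lay on opposite sides of wild type and also differed from each other in limma. The share of all genes with such a pattern was not computed, so the count is not a trait of the mitosis genes. Racgap1 was higher in R216W than in R216Q by 0.37, and D218G and D218Y lay below R216W by -0.57 and -0.87. Tpx2 was lower in R216W than in R216Q (-0.27), higher in D218G than in R216W (0.25), and lower in D218Y than in D218G (-0.37) and R216Q (-0.39). Cdc20 was higher in D218G than in R216Q (0.18) and R216W (0.36), and lower in D218Y than in D218G (-0.15). Ect2 was lower than in R216W in D218G (-0.18) and D218Y (-0.32), and Mad2l1 was lower in D218Y than in R216W (-0.18). In each of these pairs the line on the upper side of wild type did not pass against wild type itself in the main fit. Racgap1 in R216W and Cdc20 in D218G passed under at least 1 alternative.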

How the results depend on the processing

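No called gene changed direction under the alternatives tried. Counts were compared by their totals, and the other lists only pooled, so a turn in the direction of a count was not tested. The share of all genes called under each alternative was not computed. Subtracting array medians lowered most counts of the 34 genes called: R216Q 15, R216W 6 and D218G 4 against wild type, D218G against R216Q 4, D218G against R216W 6, and D218Y against R216Q 14. The other cell cycle lists together gave 62 for R216Q (97 as reported), 24 for R216W (57) and 21 for D218G (48). Fitting only the 6 arrays compared gave 8 for D218G against wild type, 5 against R216Q and 7 against R216W, and 25 in the other lists for D218G. An adjusted p under 0.01 left 31 there. R216W against R216Q gave 13 with genes above the median level, 17 with a variance trend and 17 with array weights, and D218G against R216W gave 19 with the trend. Leaving out 1 array gave 21 to 25 calls for R216Q against wild type, 17 to 19 for R216W, 11 to 18 for D218G, 31 to 32 for D218Y and 7 to 12 for D218G against R216Q. Calls kept in every alternative were 15 of 25 in R216Q, 6 of 19 in R216W, 4 of 15 in D218G and 27 of 32 in D218Y. Same-numbered samples did not deviate together (median r -0.025, 3 of 30 pairs over 0.1), and a replicate block gave 24, 18, 13 and 32 calls in R216Q, R216W, D218G and D218Y, and 33 in the F test. The causes were not tested.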
